A study of Mus musculus with 10 samples.

Results

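Genes for the structure of transverse tubules, dyads and caveolae were followed in heart muscle cells of mice with both or 1 of their copies of Actn2 floxed. This gene encodes the Z-line protein alpha-actinin-2. The genes followed are 10, chosen by symbol for their roles (Jph1, Jph2, Tmem38a, Speg, Bin1, Dysf, Cav1, Cav3, Ptrf and Ank2), and all 10 were found among the 23337 genes of the count table. The knockout group held 5 biological replicates of Actn2F/F mice, floxed on both chromosomes, and the heterozygote group 5 of Actn2F/+ mice, with 1 floxed and 1 normal copy. Every mouse, controls included, was given AAV9-cTNT-Cre, an adeno-associated virus that expresses Cre recombinase from a cardiac troponin T promoter, on postnatal day 1, and cells were taken on postnatal day 14. The heterozygotes can therefore have lost 1 copy of the gene and are not untreated. Cells were freed with collagenase, cardiomyocytes were purified by sorting, and full-length cDNA of each replicate was sequenced as 1 library; whether a replicate was 1 mouse or several was not stated.

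Transverse tubules are inward folds of the cardiomyocyte surface membrane that run along the Z-lines and carry the action potential into the cell. Where a tubule meets the junctional sarcoplasmic reticulum the membranes form a dyad, across which calcium channels of the tubule trigger ryanodine receptors of the reticulum. Tubules form after birth in the mouse heart, and caveolae, flask-shaped pits of the surface membrane coated by caveolins and cavins, share some of their proteins.

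Actn2 itself checked the labels, at 1145 to 1286 CPM (counts scaled to library size, with TMM factors) in the knockouts and 2677 to 3474 CPM in the heterozygotes. The knockout mean was 0.383 of the heterozygote mean, so part of the message remained in the knockouts. Library totals ran from 8086656 to 25237696 counts. The 8 cardiomyocyte markers summed to 91115 to 118470 CPM in the heterozygotes and 91764 to 117890 CPM in the knockouts. The 12 endothelial markers summed to 582 to 967 CPM and 411 to 703 CPM in the same order, the 8 fibroblast markers to 329.5 to 538 and 318 to 648 CPM, the 7 smooth muscle and pericyte markers to 473 to 698 and 539 to 695 CPM, and the 8 macrophage and leukocyte markers to 12.2 to 30.4 and 7.07 to 9.85 CPM. Within the cardiomyocyte list Tnni3 was called lower (log2 fold change -0.53) and Mybpc3 higher (0.43), while the rest did not pass the test. Within the smooth muscle and pericyte list Cspg4 was called higher (37.0 and 132 CPM on average, log2 fold change 1.84), while the other 6 had log2 fold changes of -0.65 to -0.26 that did not pass the test. The macrophage and leukocyte sums were low and did not overlap between the genotypes. Of the 3 genes of that list that could be tested, Csf1r was called lower (4.61 and 2.51 CPM on average, log2 fold change -0.86). The 4 erythroid markers summed to at most 1.18 CPM, with Hba-a1 and Hbb-b1 at 0 in all libraries. All 12 endothelial markers were detected in each library, and all 12 had a negative log2 fold change (-0.76 to -0.06), of which 2 passed the test. In such bulk samples, fewer cells of a type and less RNA per cell cannot be told apart. Y-linked genes were near absent in 3 of the 10 libraries, heterozygotes 3 and 5 and knockout 5.

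Of the 10 genes, 1 differed between the genotypes at an adjusted p below 0.05 (edgeR's quasi-likelihood test, adjusted over all 11870 tested genes). That gene was Tmem38a, which was lower in the knockout. Over all tested genes 18.9% were called, 8.64% as lower and 10.2% as higher, so 1 call in 10 genes lies near the background. The groups did not overlap for that gene alone, against 14.7% of all tested genes (6.32% lower and 8.41% higher in the knockout). The median log2 fold change of the 10 was -0.11, beside 0.0023 over all tested genes, and the median of its size was 0.18, beside 0.22. The other 9 genes did not pass the test, and Cav1 stood just outside the threshold.

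**Figure D1:**
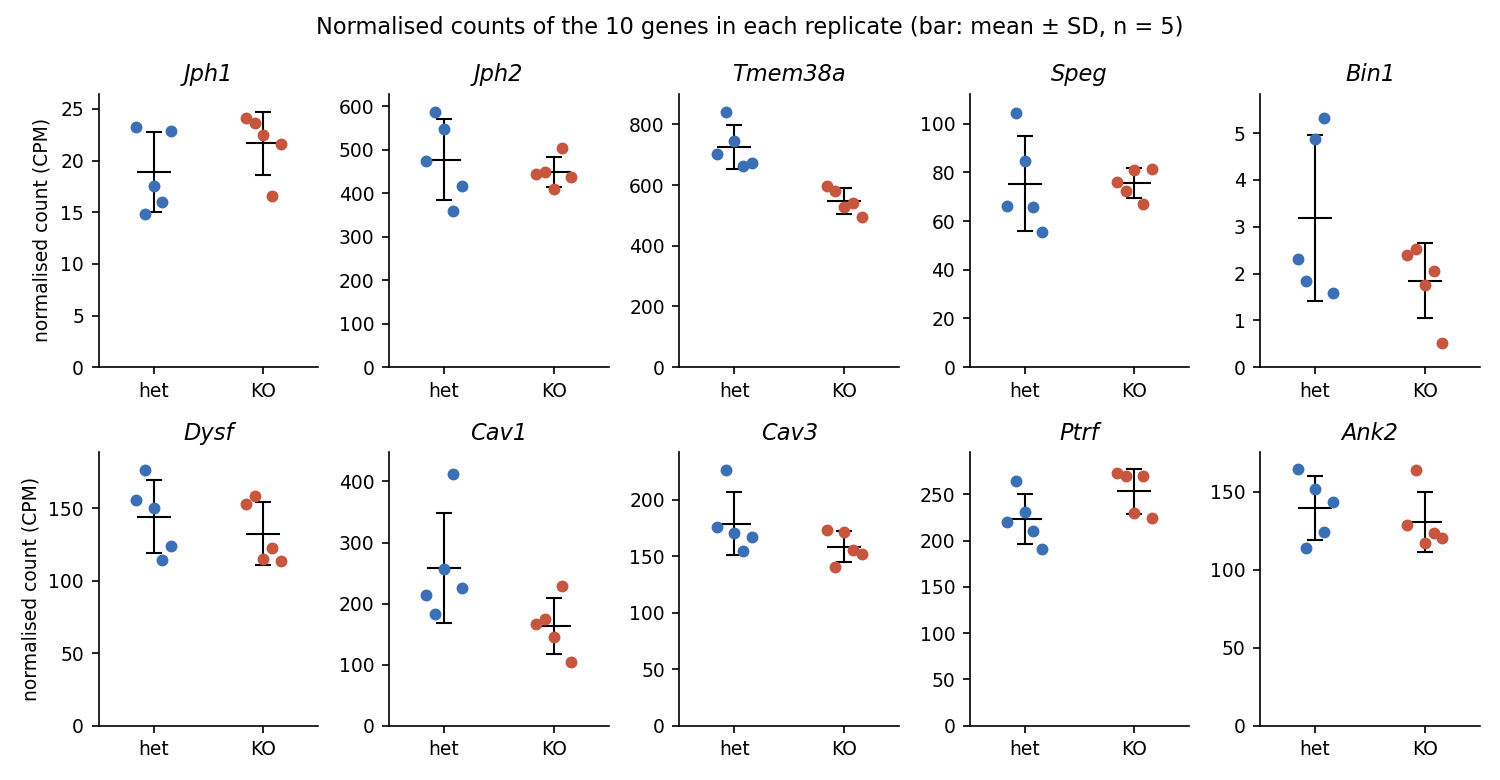
Normalised counts in CPM (vertical axis, from 0, with its own scale in each panel) of the 10 genes in the 5 heterozygotes (het, blue) and the 5 knockouts (KO, red), 1 point per replicate, with the mean and SD as bars. For Tmem38a alone every red point lies below every blue point.

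**Figure D2:**
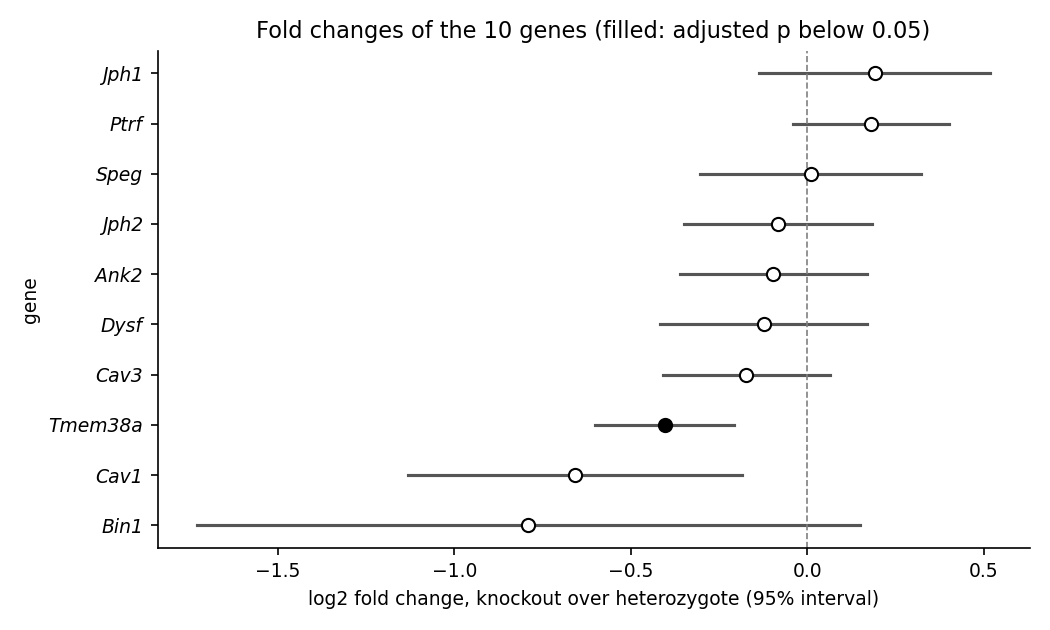
Log2 fold changes of the 10 genes, knockout over heterozygote (horizontal axis), with 95% intervals from edgeR's fit as lines. Only the point of Tmem38a is filled, which marks an adjusted p below 0.05, and the intervals of Bin1 and Cav1 are the widest.

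Compared per length, the genes covered a wide span of levels. In the heterozygotes Tmem38a was at 346 ± 34.8 RPKM (CPM per kilobase of exon, SD, n = 5), above 98.3% of all tested genes. Cav3 was at 154 ± 24.03, Jph2 at 112 ± 21.9, Cav1 at 93.2 ± 32.4 and Ptrf at 69.5 ± 8.38 RPKM. A lower tier held Dysf at 20.4 ± 3.57, Ank2 at 18.5 ± 2.73, Speg at 6.32 ± 1.63, Jph1 at 3.93 ± 0.811 and Bin1 at 1.30 ± 0.723 RPKM. Among neighbours in this order the ranges over replicates were apart between Tmem38a and Cav3, Ptrf and Dysf, Ank2 and Speg, and Jph1 and Bin1, and overlapped between the rest. The knockout order was the same except that Ptrf (78.7 ± 7.49 RPKM) stood above Cav1 (59.1 ± 16.5 RPKM). Junctophilin message was thus mostly Jph2, and the amphiphysin gene Bin1 was the least abundant of the 10. The spread between replicates, as SD over mean of the CPM, was smaller in the knockouts for 9 of the 10 genes, all but Ank2 (14.7% and 14.8%), a difference that was not tested. It was 25.8% in the heterozygotes and 7.94% in the knockouts for Speg, and 19.6% and 7.66% for Jph2. Bin1 (55.7% and 43.6%) and Cav1 (34.7% and 28.0%) varied most, and Tmem38a (10.1% and 7.62%) least in both groups.

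**Figure D3:**
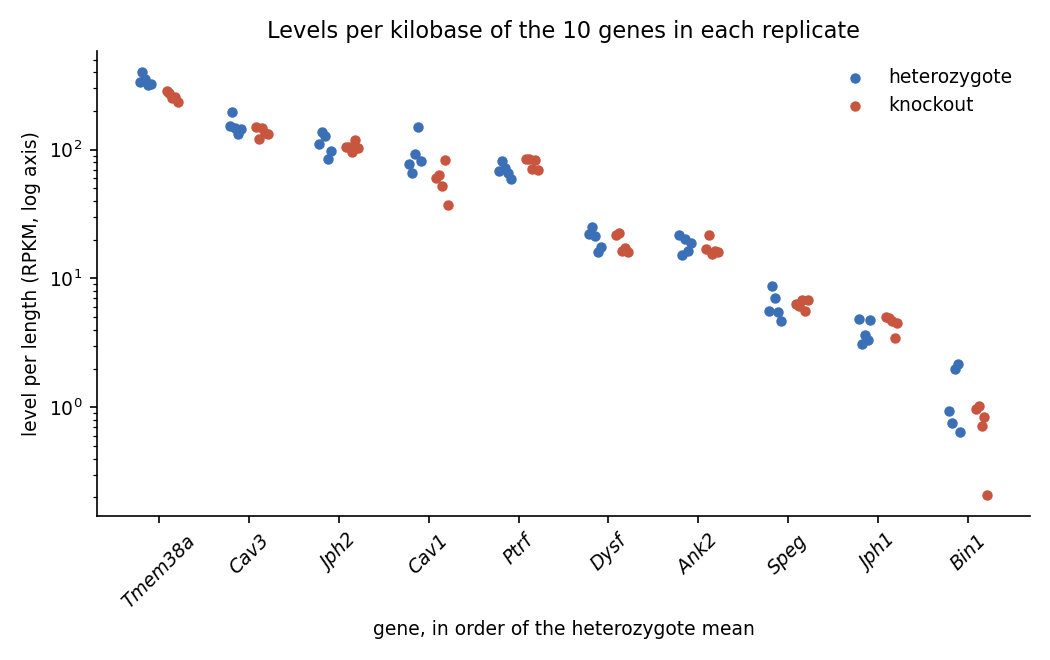
Levels per kilobase (RPKM, logarithmic vertical axis) of the 10 genes in order of the heterozygote mean, with 1 point per replicate, heterozygotes in blue and knockouts in red. The order runs from Tmem38a at the top to Bin1 at the bottom, and the colours are apart for Tmem38a.

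Tmem38a encodes TRIC-A, a trimeric cation channel of the sarcoplasmic reticulum membrane that lets potassium move against the calcium flux. Its counted model spans mm10 chromosome 8, 72572103 to 72587284, plus strand, and no exon of another gene in the table overlaps it. Its normalised count was 702, 842, 747, 662 and 673 CPM in heterozygotes 1 to 5. In knockouts 1 to 5 it was 599, 580, 527, 540 and 494 CPM. All knockouts lay below all heterozygotes, with means of 548 ± 41.7 and 725 ± 72.9 CPM (SD, n = 5). The nearest replicates of the 2 groups were knockout 1 at 599 and heterozygote 4 at 662 CPM. Its log2 fold change was -0.40 (SE 0.0918, 95% interval -0.60 to -0.21, edgeR adjusted p 0.00691), which is 0.756 of the heterozygote level. Leaving out any 1 of the 10 replicates kept the call (-0.44 to -0.34). With the mean level of the 12 endothelial markers as a covariate the estimate was -0.39 with a wider SE of 0.127, and the adjusted p was 0.0745.

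The paralog Tmem38b, the gene of TRIC-B, which is found in many tissues, was at 19.9 ± 3.80 CPM in the heterozygotes and 15.3 ± 3.25 CPM in the knockouts (SD, n = 5) and did not pass the test (log2 fold change -0.39, edgeR adjusted p 0.125). Tmem38a made up 97.3% ± 0.695 of the counts of the pair in the heterozygotes and 97.3% ± 0.394 in the knockouts, so the means lay 0.014 points apart (two-sided exact permutation p = 0.960, adjusted over 3 such shares 0.960). Single replicates ranged from 96.5% (Wilson 95% interval 96.0 to 97.0%) in heterozygote 4 to 98.1% (97.7 to 98.4%) in heterozygote 2. The share was thus within the spread between replicates. Because Tmem38a was nearly the whole pair, a fall of its size could move the share only little, and the test could hardly show it. The log2 fold changes of the 2 genes were alike, -0.40 for Tmem38a and -0.39 for Tmem38b.

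The promoter window of Tmem38a is shown because it is the gene that passed the test. It comes from RefSeq (GRCm38.p6, plus strand, chr8:72571573-72571872) and covers 250 bases before to 50 after a start site that lies 280 bases upstream of the first base counted in the table. Capitals mark an E-box (CANNTG, the core bound by basic helix-loop-helix factors) and GGAATG, the core of the sites of TEAD factors, searched on both strands. GGAATG begins at position -99 and the E-box at position 12, counted from the start site at 0.
Tmem38a: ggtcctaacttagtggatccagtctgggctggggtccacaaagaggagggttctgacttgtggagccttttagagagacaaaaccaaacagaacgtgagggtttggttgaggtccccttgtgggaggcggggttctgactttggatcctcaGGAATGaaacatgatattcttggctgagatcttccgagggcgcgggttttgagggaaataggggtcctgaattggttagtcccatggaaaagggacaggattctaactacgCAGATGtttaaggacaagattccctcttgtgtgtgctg
E-boxes occur in 72.3% and GGAATG in 14.7% of all 32851 RefSeq windows of this length. Windows of 8 of the 10 genes were used, 18 in all and some overlapping, and not those of Jph1 or Bin1. An E-box was found in 14 of the 18 and GGAATG in 6. A CArG box, the site of serum response factor, was found in 0 of the 18 (1.63% of all windows), a MEF2 site in 1, at the first start of Speg (3.19%), and TATAAA in 2 (13.6%). These matches are descriptions of letters, and the motifs can overlap one another.

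Junctophilins span the dyad, with repeated motifs that bind the tubule membrane and a tail anchored in the reticulum. Jph2 is the main form of the heart and Jph1 that of skeletal muscle. Jph2 (chromosome 2, 163336242 to 163397993) was at 473, 588, 546, 358 and 417 CPM in heterozygotes 1 to 5. Its level was 445, 450, 411, 505 and 437 CPM in knockouts 1 to 5. The knockout values fell inside the heterozygote range, and the log2 fold change was -0.08 (SE 0.124, 95% interval -0.35 to 0.18, edgeR adjusted p 0.695). Jph1 (chromosome 1, 16994940 to 17097889) was at 23.2, 14.9, 17.6, 15.98 and 22.8 CPM in heterozygotes 1 to 5. In knockouts 1 to 5 it was at 24.2, 23.7, 22.4, 16.5 and 21.6 CPM. The groups overlapped, with a log2 fold change of 0.19 (SE 0.153, 95% interval -0.14 to 0.52, edgeR adjusted p 0.426). Jph1 made up 3.94% ± 1.13 of the counts of the pair in the heterozygotes and 4.64% ± 0.844 in the knockouts (two-sided exact permutation p = 0.246, adjusted 0.369). Neither junctophilin gene nor their balance differed beyond the spread between replicates, and the intervals leave room for changes of up to 0.52 on the log2 scale for Jph1.

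Speg encodes a striated-muscle kinase of the myosin light chain kinase family that binds junctophilin-2 and the ryanodine receptor. Its message (chromosome 1, 75375297 to 75432306) was at 66.2, 105, 84.6, 65.7 and 55.5 CPM in heterozygotes 1 to 5. In knockouts 1 to 5 the level was 76.2, 72.4, 80.9, 67.2 and 81.6 CPM. The knockout range lay within the heterozygote range, and the log2 fold change was 0.0098 (SE 0.146, 95% interval -0.30 to 0.32, edgeR adjusted p 0.971), with a sign that changed with the scaling. Counts per gene join the long muscle forms of Speg with its short forms, which start within the gene.

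Bin1 and dysferlin act on the tubule membrane itself. Bin1 encodes amphiphysin-2, whose BAR domain curves membranes into tubules, and its message (chromosome 18, 32377217 to 32435740) rested on only 9 to 55 counts per replicate. Its level was 2.31, 1.84, 4.87, 5.33 and 1.57 CPM in heterozygotes 1 to 5. The knockouts 1 to 5 were at 2.39, 2.52, 1.76, 2.05 and 0.51 CPM. Heterozygotes 3 and 4 stood above all other replicates and knockout 5 below them, and the log2 fold change of -0.79 had a wide error (SE 0.438, 95% interval -1.73 to 0.15, edgeR adjusted p 0.233). The 2 genotypes could not be told apart within that error, and the muscle and general splice forms of the gene are not told apart. In GENCODE M21, on the same build, 256 bases of its exons are shared with exons of A830052D11Rik, and the counting did not use strand.

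Dysf encodes dysferlin, a calcium-binding membrane protein of patch repair that is also found on developing tubules. Dysf (chromosome 6, 84008590 to 84211042) was at 156, 176, 150.3, 114 and 124 CPM in heterozygotes 1 to 5. It stood at 153, 158, 115, 123 and 113 CPM in knockouts 1 to 5. The ranges overlapped almost fully (log2 fold change -0.12, SE 0.137, 95% interval -0.42 to 0.17, edgeR adjusted p 0.584). Of its exons 457 bases are shared with exons of Gm15475 and Gm33024 in GENCODE M21.

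Caveolae need a caveolin and the cavin encoded by Ptrf (also named Cavin1). Caveolin-3, from Cav3, is the form of muscle cells, while caveolin-1, from Cav1, is abundant in endothelial cells and also in fibroblasts and smooth muscle. Cav3 (chromosome 6, 112459505 to 112472872) was at 175, 226, 171, 154 and 167 CPM in heterozygotes 1 to 5. Its knockout levels were 173, 141, 171, 155 and 152 CPM in replicates 1 to 5. Heterozygote 2 stood above the rest, and the log2 fold change was -0.17 (SE 0.111, 95% interval -0.41 to 0.064, edgeR adjusted p 0.307). Ptrf (chromosome 11, 100956736 to 100970617) was at 221, 264, 231, 211 and 191 CPM in heterozygotes 1 to 5. The same gene reached 273, 270.2, 229.7, 269.5 and 224 CPM in knockouts 1 to 5. The groups overlapped (log2 fold change 0.18, SE 0.103, 95% interval -0.041 to 0.40, edgeR adjusted p 0.251).

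Cav1 (chromosome 6, 17306335 to 17341328) was at 214, 184, 256, 412 and 225 CPM in heterozygotes 1 to 5. In knockouts 1 to 5 it was at 166, 174, 144, 229 and 104 CPM. Heterozygote 4 was far above the rest and knockout 4 lay within the heterozygote range, so the groups overlapped. The log2 fold change was -0.66 (SE 0.221, 95% interval -1.13 to -0.18, edgeR adjusted p 0.0517), which did not pass the threshold. Without heterozygote 4 it was -0.43 (adjusted p 0.123). It passed without heterozygote 2 (-0.76, adjusted p 0.0339), without knockout 4 (-0.81, 0.0234), with RLE scaling (0.0485), with upper-quartile scaling (0.0453), without a filter (0.0422), with Y-linked expression as a covariate (0.0236), with DESeq2 (0.0129) and with voom (0.0481).

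The level of Cav1 went with that of endothelial markers. Their sum was 649, 721, 818, 967 and 582 CPM in heterozygotes 1 to 5. For knockouts 1 to 5 it was 532, 609, 498, 703 and 411 CPM. Heterozygote 4 had the highest and knockout 5 the lowest value of both Cav1 and the sum. Heterozygote 2 went the other way, with the lowest Cav1 of its group but a sum above those of heterozygotes 1 and 5. Marker sums of other cell types were not set against Cav1. Per CPM of the endothelial sum, Cav1 ran from 0.255 to 0.426 in the heterozygotes and from 0.253 to 0.326 in the knockouts, which overlapped. This ratio also moves with the sum itself. For Ptrf, whose CPM overlapped, it was apart, at 0.218 to 0.366 in the heterozygotes and 0.383 to 0.546 in the knockouts. With the endothelial level as a covariate, the log2 fold change of Cav1 was -0.093 (SE 0.151, edgeR adjusted p 0.793). That of Bin1 became 0.25 (adjusted p 0.799), while those of Cav3 (-0.24), Ptrf (0.27) and Tmem38a (-0.39) kept their sign. The estimates of Jph1 (from 0.19 to -0.057) and Speg (from 0.0098 to -0.027) also changed sign. Since the marker level was itself lower in the knockouts on average, the covariate and the genotype cannot be told apart fully in this design.

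**Figure D4:**
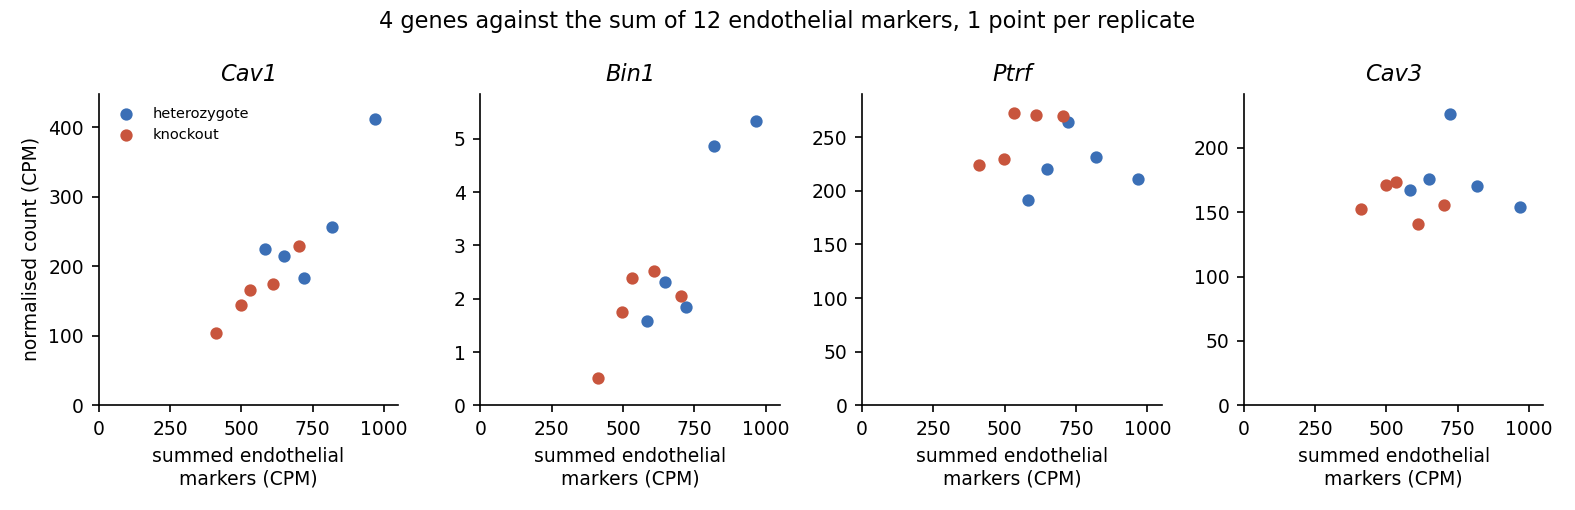
Normalised counts (CPM, vertical axes from 0) of Cav1, Bin1, Ptrf and Cav3 against the summed CPM of 12 endothelial markers (horizontal axis, from 0), 1 point per replicate, heterozygotes in blue and knockouts in red. For Cav1 the points run from knockout 5 at the lower left to heterozygote 4 at the upper right, while those of Cav3 spread at about the same height.

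Likeness in pattern was described by Pearson's r of log2 CPM over the 10 libraries, with the mean of each genotype removed and no test. Against the mean of the 12 endothelial markers r was 0.90 for Cav1 and 0.82 for Bin1, and from -0.66 (Jph1) to 0.39 (Ptrf) for the other 8 genes. The value of Bin1 rests on only 9 to 55 counts per library and includes its low knockout 5. Among the 8368 genes that averaged 10 CPM or more, those most like Cav1 were the pericyte marker Rgs5 (0.98), Mpzl1 (0.98) and the Src-family kinase gene Lyn (0.97). For Cav3 they were Il11ra1 (0.98), 0610007P22Rik (0.97) and Pgls (0.97), and for Ptrf Thop1 (0.96), Rtn4r (0.95) and Ciapin1 (0.94). With 10 libraries, the top of so many genes is high by selection alone.

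The caveolins were also set against each other. Cav1 made up 58.0% ± 10.1 of the counts of Cav1 plus Cav3 in the heterozygotes and 50.03% ± 7.57 in the knockouts (SD, n = 5), with the lowest share in knockout 5, 40.5% (39.1 to 42.0% by Wilson's 95% interval), and the highest in heterozygote 4, 72.7% (71.5 to 73.9%). The difference of -7.95 points was within the spread between replicates (two-sided exact permutation p = 0.214, adjusted 0.369, smallest possible 0.00794). Promoter windows of the pair are shown to set the genes' starts side by side, from RefSeq (GRCm38.p6), at chr6:17306085-17306384 for the first of 2 Cav1 starts and chr6:112459255-112459554 for Cav3, both on the plus strand. Capitals mark E-boxes and GGAATG as above.
Cav1: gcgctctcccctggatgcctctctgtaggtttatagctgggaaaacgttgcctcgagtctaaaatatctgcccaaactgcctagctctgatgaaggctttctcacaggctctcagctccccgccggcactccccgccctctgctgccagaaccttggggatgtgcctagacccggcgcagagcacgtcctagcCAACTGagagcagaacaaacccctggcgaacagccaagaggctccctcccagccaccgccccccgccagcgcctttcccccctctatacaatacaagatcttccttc
Cav3: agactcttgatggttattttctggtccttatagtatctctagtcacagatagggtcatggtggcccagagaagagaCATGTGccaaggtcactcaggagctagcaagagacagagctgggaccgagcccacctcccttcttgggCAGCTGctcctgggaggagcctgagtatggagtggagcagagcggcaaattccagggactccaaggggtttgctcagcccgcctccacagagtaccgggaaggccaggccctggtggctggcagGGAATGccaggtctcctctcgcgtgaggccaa
The Cav1 window held 1 E-box, at position -57, and no GGAATG. The Cav3 window held E-boxes at -174 and -106 and GGAATG at 18.

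Ank2 encodes ankyrin-B, which holds the sodium-calcium exchanger and the sodium pump at tubule membranes. It was counted over chromosome 3, 126921607 to 126998452, and RefSeq places another start 500663 bases upstream of that model, so reads of exons beyond it are not in these counts. Its level was 165, 114, 152, 124 and 143 CPM in heterozygotes 1 to 5. Knockouts 1 to 5 were at 128, 164, 117, 123 and 120.1 CPM. Knockout 2 stood above the other knockouts and level with heterozygote 1, and the groups overlapped (log2 fold change -0.10, SE 0.123, 95% interval -0.36 to 0.17, edgeR adjusted p 0.642).

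Other genes of these structures were taken from lists written for this purpose. Of 12 caveola genes tested, 2 were higher and 1 lower in the knockout, with a median log2 fold change of 0.083 (10.2% of all tested genes were called higher and 8.64% lower). Bves, which encodes a Popeye protein of the surface membrane that binds caveolin-3, rose by 0.73 on the log2 scale, from 129 ± 13.4 to 215 ± 18.2 CPM (edgeR adjusted p 0.000155; SD, n = 5), and the groups were apart. Its relative Popdc2 fell from 1279 ± 120 to 973 ± 54.3 CPM (-0.39, adjusted p 0.00531), with the groups also apart. With the endothelial covariate Popdc2 kept its size, -0.39, at an adjusted p of 0.0555, and Bves stayed called (0.80, adjusted p 0.00231). Ehd4, for a membrane-shaping ATPase, was called higher (0.29, adjusted p 0.0404), a call that held in 1 of the 10 fits without 1 replicate, the one without heterozygote 3, and had adjusted p of 0.0544 to 0.0852 in the others. With the endothelial covariate it was 0.31 (adjusted p 0.162). The cavin genes Sdpr (log2 fold change -0.09), Prkcdbp (0.11) and Murc (0.15) did not pass. Cav2, which encodes the partner of caveolin-1, had -0.59 with an SE of 0.286 (adjusted p 0.173).

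Of 12 tested genes of the tubule membrane, 2 were higher and 1 lower (median -0.026), beside the same shares of all genes, and the amphiphysin-1 gene Amph was too low to test. Anxa5, for a calcium-dependent membrane-binding annexin, rose by 0.99 on the log2 scale, from 129 ± 21.6 to 257 ± 22.4 CPM (SD, n = 5). Its groups were apart (edgeR adjusted p 4.63e-05), and it stayed called with the endothelial covariate (1.13, adjusted p 0.000605). Tcap, which encodes the titin cap protein found at Z-lines along tubules, was higher (0.57, adjusted p 0.0259), though not without heterozygote 3, heterozygote 5 or knockout 3 (adjusted p 0.0530 to 0.0683), nor with the endothelial covariate (0.39, adjusted p 0.280). The genes of the Speg partner myotubularin, Mtm1 (log2 fold change -0.35, adjusted p 0.107), of dynamin-2, Dnm2 (0.03), and of the repair protein MG53, Trim72 (-0.49, 0.0792), did not pass.

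Of 18 tested genes of the junctional reticulum and dyad, 4 were higher and 2 lower (median 0.11), beside 10.2% and 8.64% of all tested genes, and Jph3, Jph4 and Jsrp1 were too low to test. Casq1, for skeletal calsequestrin, had a log2 fold change of 4.30 (edgeR adjusted p 8.34e-07) and Sypl2, for the skeletal triad protein mitsugumin-29, of 2.52 from a level of 0.549 ± 0.388 CPM (SD, n = 5, adjusted p 0.00181). With the endothelial covariate Casq1 was at 4.11 (adjusted p 3.63e-05) and Sypl2 at 1.98 (adjusted p 0.0538). Asph, whose products include junctin and junctate, rose from 473 ± 37.5 to 649 ± 38.9 CPM (0.46, edgeR adjusted p 0.00181). Counts per gene do not tell which of its products rose. The fourth was the L-type calcium channel gene Cacna1c (0.42, adjusted p 0.0168), named after its value was seen. With the endothelial covariate the list kept 2 higher calls, Casq1 and Asph (adjusted p 0.0439), so Cacna1c was not called there. Hrc, for a calcium-binding protein of the reticulum lumen, fell from 219 ± 29.6 to 149 ± 17.5 CPM (-0.55, adjusted p 0.00363). The calcium pump gene Atp2a2 fell by 0.40 on the log2 scale (adjusted p 0.0243), though not without heterozygotes 1, 3 or 5 or knockouts 3 or 4 (0.0541 to 0.0719). Hrc (-0.67, edgeR adjusted p 0.0126) and Atp2a2 (-0.50, 0.0488) stayed called with the endothelial covariate. Ryr2, the ryanodine receptor gene, was at 0.04 (adjusted p 0.837) and the triadin gene Trdn at -0.09 (0.612).

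Around ankyrin-B, 3 of 10 tested ankyrin, spectrin, adducin and sodium pump genes were called higher and 0 lower (median 0.16; 10.2% of all genes were called higher), with Spnb3 and Spnb4 too low to test. Ank3, for ankyrin-G, rose by 0.51 on the log2 scale, from 82.6 ± 10.2 to 118 ± 14.1 CPM (edgeR adjusted p 0.00482; SD, n = 5), and the groups were apart. The spectrin genes Spna2 (now Sptan1; 0.42, adjusted p 0.0160) and Spnb1 (now Sptb; 0.40, 0.0337) followed, the second not called without heterozygotes 4 or 5 or knockouts 1, 2 or 5 (0.0583 to 0.0836). With the endothelial covariate 0 of the 10 remained past the threshold, among 1117 calls in all, though with wider errors the estimates were 0.46 for Ank3 (adjusted p 0.0719), 0.50 for Spna2 (0.0527) and 0.27 for Spnb1 (0.331). Ank1 (log2 fold change -0.21, adjusted p 0.220) did not pass.

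**Figure D5:**
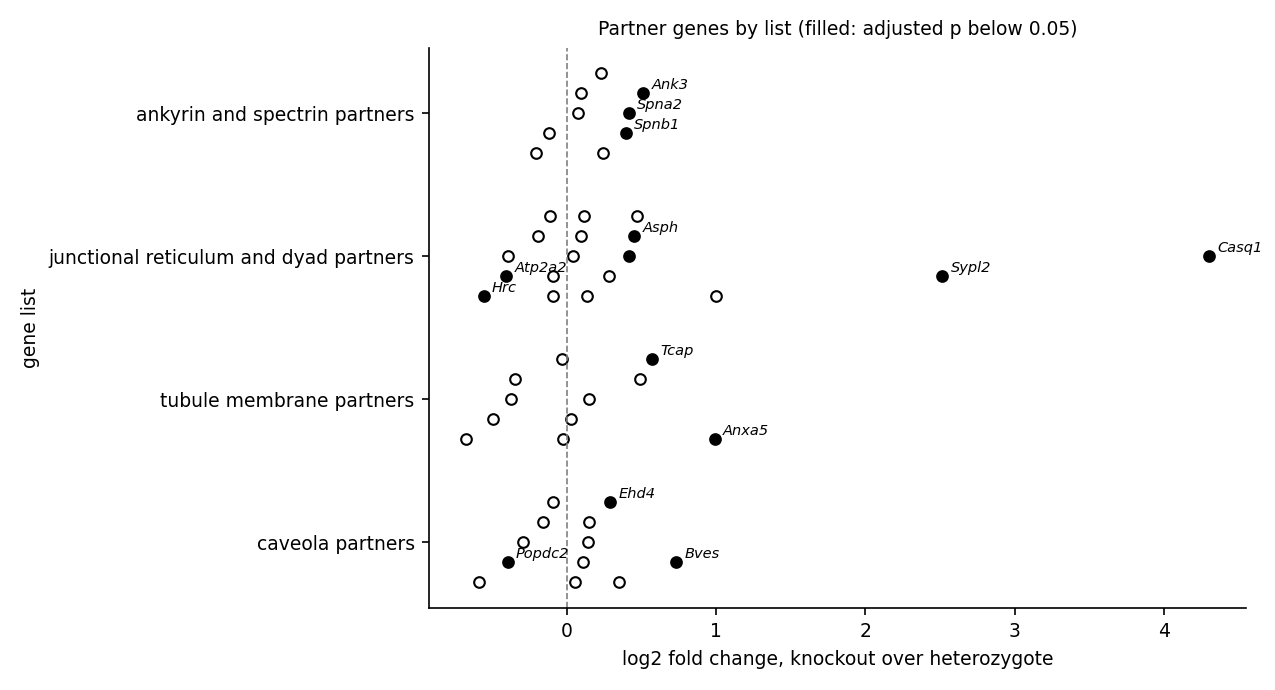
Log2 fold changes, knockout over heterozygote (horizontal axis), of the tested partner genes reported here, in 4 lists, 1 point per gene, filled where the adjusted p was below 0.05 and spread vertically within a list only to part the points. Most points lie near 0, and Casq1 at 4.30 and Sypl2 at 2.52 lie far to the right.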

How the data were processed

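RNA of sorted cardiomyocytes was analysed in 10 libraries, 5 biological replicates per genotype. From 10 ng of RNA, cDNA was amplified by 8 PCR cycles and 500 pg went into each library, per the labels' protocols. The authors deposited whole-number counts of reads per gene, not normalised, made with featureCounts 1.5.1 and an mm10 annotation archive of 2012, per the file headers; the submitters' processing notes list STAR 2.5.3a and Subread 1.5.2. No strand option was set. The gene lengths used for RPKM are those deposited in the same table, per the file headers. Of the count columns, 4 match no sample of the series and were not used.

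Genes were kept by edgeR's filterByExpr (minimum count 10, minimum total 15), leaving 11870, scaled with TMM and tested with edgeR's quasi-likelihood test (edgeR 4.0.16, R 4.3.3), with Benjamini-Hochberg adjustment over all of them. All 10 member genes passed the filter. Log2 CPM used a prior count of 1. Intervals are 95%. Shares were compared by exact two-sided permutation over 252 arrangements. Wilson intervals and the limit that a count of 0 allows hold for counting error only, because reads amplified by PCR are no independent molecules. In single libraries 3 counts are 1.19e-05% to 3.71e-05% of the total. Over 20 replicate pairs a chi-square per degree of freedom was 10.8 to 37.5, so no library was a copy of another.

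The members and lists were chosen with earlier results of these data known. The named genes are all 10 members, Actn2, up to 3 called rises and 3 called falls per list, and the 3 genes most like each of Cav1, Cav3 and Ptrf; others were named after their values were seen. Values of some listed genes are not reported here, though the lists' counts and medians include them. Older spectrin symbols were matched through RefSeq synonyms (GRCm38.p6). On simulated counts for 11870 genes, 81.6% of the genes changed 2-fold and 100% of those changed 4-fold were called, 5.38% of calls were unchanged genes, and 1 gene was called when none was changed. Alternatives were other scalings and filters, covariates, a replicate block, DESeq2 1.42.0, voom (limma 3.58.1) and leaving out each replicate.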

Additional observations from a re-analysis of the deposited data

Results flagged for a closer look

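In 70 groups of 5 values, 5 had a highest or lowest replicate whose gap to the next exceeded 0.71 of the range of its group, where chance gives about 3.5. On the log2 CPM scale, knockout 5 had -0.75 for Bin1 and the knockout nearest to it 0.88. For Ank2, knockout 2 had 7.36 and its nearest neighbour 7.01. The Jph1 share of Jph1 plus Jph2 was 3.17% in knockout 4, against 4.71%. The summed macrophage and leukocyte markers were at 30.4 CPM in heterozygote 3, against 14.6 CPM. The total count was 25237696 in heterozygote 1, against 10309615.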

How the results depend on the processing

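Leaving out single replicates gave 1699 to 2258 calls over all genes, 1 or 2 among the 10 genes, 2 to 3 in the caveola list, 1 to 5 in the tubule membrane list, 5 to 7 in the dyad list and 2 to 3 in the ankyrin and spectrin list. The 1 call in the tubule membrane list came without heterozygote 3 or knockout 3, and the 5 without heterozygotes 2 or 4. The endothelial covariate lowered the calls to 1117 over all genes and to 0 of the 10 genes (edgeR, from Tmem38a alone). It gave 1 call in the caveola list, 2 in the tubule membrane list, 4 in the dyad list and 0 in the ankyrin and spectrin list. Calls that held with it included Bves, Anxa5, Casq1, Asph, Hrc and Atp2a2. The estimates of Tmem38a (-0.39), Popdc2 (-0.39), Ehd4 (0.31), Ank3 (0.46) and Spna2 (0.50) stayed near their size there, with larger SE. The 10 genes gave 2 calls, Cav1 being the second, with RLE or upper-quartile scaling, no filter, the Y-linked covariate, DESeq2 or voom. The tubule membrane list gave 5 calls with DESeq2 and 6 with voom, and the ankyrin and spectrin list 5 with DESeq2. The cause was not tested.

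The labels do not say whether equal replicate numbers pair the samples, and the correlations did not settle it. The deviations of same-numbered samples correlated above 0.1 in 3 of 5 pairs (-0.060 to 0.19), and 2 of 5 numbers matched themselves best. With the replicate block 2182 genes were called, among them 2 of the 10, with Cav1 at -0.65 (edgeR adjusted p 0.00819). The paired sign-flip test of the shares, too small with 5 pairs to pass the threshold, gave adjusted p of 0.656, 0.563 and 0.813 for the Jph1, Cav1 and Tmem38a shares.

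Signs changed for genes and shares that did not pass in any setting. Speg was at -0.0024 with RLE, -0.017 with upper quartiles, -0.0027 with DESeq2, -0.027 with the endothelial covariate, and -0.081 to 0.16 without single replicates. Jph2 was at 0.0036 with library totals and -0.17 to 0.0057 without single replicates, Jph1 at -0.057 and Bin1 at 0.25 with the endothelial covariate. The Tmem38a share difference ran from -0.17 to 0.21 points without single replicates. Library totals alone moved the median log2 fold change of all genes from 0.0023 to 0.084 and the share of higher calls to 68.9%. Bin1 had the fewest counts, 9 in the lowest library.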

Other observations

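Genes known chiefly from the triads of skeletal muscle were set side by side after their values were seen. Casq1 went from 37.8 ± 13.1 to 747 ± 319 CPM and Sypl2 from 0.549 ± 0.388 to 3.12 ± 1.55 CPM (SD, n = 5), with the groups apart for both. Jph1, the junctophilin gene of skeletal muscle, from 18.9 ± 3.90 to 21.7 ± 3.05 CPM, did not pass the test. Jsrp1 had at most 11 counts in any library. The neuronal junctophilin genes Jph3 and Jph4 had at most 6.

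Some genes called lower were set side by side, also picked after their values were seen. Their knockout levels relative to the heterozygote were 0.756 for Tmem38a, 0.756 for Atp2a2, 0.761 for Popdc2 and 0.681 for Hrc. In the same order the 95% intervals on the log2 scale were -0.60 to -0.21, -0.65 to -0.16, -0.58 to -0.21 and -0.80 to -0.31. Because only genes called lower were picked, similar ratios and overlapping intervals follow in part from that choice. The Atp2a2 call held in 5 of the 10 fits without 1 replicate. Casq2 (-0.11), Srl (0.14) and Pln (-0.09), also genes of the reticulum, did not pass the test.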
